A study of Mus musculus with 11 samples.

Results

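The genes described are 9 that handle zinc: 4 importers (Slc39a4, Slc39a1, Slc39a6, Slc39a10), 2 exporters (Slc30a1, Slc30a5), the metallothioneins Mt1 and Mt2, and Mtf1, the transcription factor that controls them. They were chosen by name among the 25121 genes measured, with earlier results of the same comparison known. All 9 passed the filter on low counts, as did 15132 genes in all. RNA was measured in mouse macrophages grown from bone marrow. They sat in the upper insert of a Transwell dish, with primary epithelial cells of the renal proximal tubule in the lower chamber. In 5 libraries (replicates 2 to 6) the cultures received TGF-β1 at 5 ng/mL together with hemin at 10 µM, and in 6 libraries (replicates 1 to 6) TGF-β1 at 5 ng/mL alone, both for 72 h. Hemin is the chloride of oxidised heme. Both groups thus received TGF-β1 and shared their culture with epithelial cells, so an effect of hemin on the macrophages cannot be told apart from one through the epithelium. Whether the replicates are different animals or cultures is not in the labels, so errors and p-values measure the spread between these libraries, which may be technical.

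Zinc enters the cytosol through the ZIP family, encoded by the Slc39a genes, and leaves it, for the outside or for organelles, through the ZnT family, encoded by the Slc30a genes. Metallothioneins are small cysteine-rich proteins that bind zinc and copper. When free zinc rises, the factor MTF-1 binds metal response elements in promoters and raises transcription of Mt1, Mt2 and Slc30a1. In macrophages this system is known for starving or poisoning engulfed microbes with metal.

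Metal response elements share a core that was searched as TGCACNC and TGCGCNC, on both strands, in RefSeq promoter windows of build GRCm38.p6. A window holds 250 bases before and 50 bases from the annotated start, which is counted here as base 0. Windows were matched for 7 of the 9 genes, all but Slc39a4 and Slc39a6, which were not searched. The windows of Mt1, Mt2 and Slc30a1, the textbook targets of MTF-1 among the 9 genes, are shown so that the core matches can be read in place, and the capitals mark them. A match is a description of the letters, not a measured binding site. Bases outside a window were not searched, so a count does not describe the whole promoter of a gene. Whether transcription begins at the annotated start was not tested, so positions are relative to the annotation only.
Mt1 (chr8:94178839-94179138, plus strand): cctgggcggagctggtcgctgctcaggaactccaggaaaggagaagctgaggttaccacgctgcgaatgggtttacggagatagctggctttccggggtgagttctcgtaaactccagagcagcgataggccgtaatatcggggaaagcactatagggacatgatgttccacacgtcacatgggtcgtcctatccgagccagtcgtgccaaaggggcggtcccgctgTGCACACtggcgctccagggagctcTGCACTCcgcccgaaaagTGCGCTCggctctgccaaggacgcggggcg
Mt2 (chr8:94172368-94172667, plus strand): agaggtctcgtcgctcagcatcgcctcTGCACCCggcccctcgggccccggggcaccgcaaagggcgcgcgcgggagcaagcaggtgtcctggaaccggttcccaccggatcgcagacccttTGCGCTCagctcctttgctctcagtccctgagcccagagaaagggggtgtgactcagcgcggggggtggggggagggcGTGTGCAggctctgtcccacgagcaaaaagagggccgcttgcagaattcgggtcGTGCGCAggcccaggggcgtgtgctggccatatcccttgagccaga
Slc30a1 (chr1:191906531-191906830, plus strand): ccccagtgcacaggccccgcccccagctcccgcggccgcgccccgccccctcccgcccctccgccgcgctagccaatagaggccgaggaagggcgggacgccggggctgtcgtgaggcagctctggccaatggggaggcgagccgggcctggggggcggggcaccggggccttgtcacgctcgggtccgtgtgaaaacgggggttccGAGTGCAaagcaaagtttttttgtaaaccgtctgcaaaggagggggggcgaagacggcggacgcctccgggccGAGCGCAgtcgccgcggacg

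The Mt1 window held 3 core matches, beginning at bases -23, 2 and 20, all on the plus strand. The Mt2 window held 4, of which those beginning at -223 and -128 lay on the plus strand and those beginning at -50 and 4 on the minus strand. The Slc30a1 window held 2, beginning at -43 and 30, both on the minus strand. Of 32851 promoter windows of the same length, 25.7% held at least 1 core, 7.11% at least 2, 1.97% at least 3 and 0.517% at least 4. The window of Slc30a5 held 1 core, and the windows of Slc39a1, Slc39a10 and Mtf1 held none of these letters. The core of the antioxidant response element, searched as TGACNNNGC on both strands, occurred once each in the windows of Mt2, Slc30a1, Slc30a5 and Slc39a1, against 12.4% of all windows with at least 1, and no match overlapped a metal response core.

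Across all genes, 14.2% of the 15132 tested passed an adjusted p of 0.05 between hemin and TGF-β1 alone (edgeR quasi-likelihood test, Benjamini-Hochberg adjustment), 8.43% higher and 5.75% lower with hemin. The median log2 fold change of all tested genes was -0.00. Of the 9 zinc genes, 3 passed: Slc39a4 and Slc39a6 were higher and Mt1 was lower with hemin. These are also the 3 whose groups did not overlap, which held for 10.2% of tested genes, 6.29% higher and 3.93% lower with hemin. Because the 9 genes were chosen with this comparison known, their counts and the fold changes below are a description. No test of them is given. The other gene lists were also chosen with earlier results known. Their counts and adjusted p-values are likewise a description, to be read beside the shares of all tested genes above. In bulk RNA, fewer cells of a type and less RNA per cell cannot be told apart. Levels are FPKM as the authors deposited them, which allow genes of different length to be compared. Fold changes are hemin over TGF-β1 alone, from the edgeR fit on counts scaled by TMM factors, with the standard error (SE). Total counts ran from 66.7 to 96.6 M in hemin libraries and from 65.5 to 71.5 M in TGF-β1 libraries (M, 1e6 counts). TMM factors ran from 0.924 to 0.982 with hemin and from 0.994 to 1.06 with TGF-β1 alone. Fold changes on FPKM therefore lie lower: the median of all tested genes was -0.06 on the log2(FPKM + 1) scale, -0.10 on log2(FPKM + 0.1) and -0.11 on log2(TPM + 1). The split of calls moved too: edgeR called 1276 genes higher and 870 lower. On log2(FPKM + 1), limma called 759 higher and 2136 lower, on log2(FPKM + 0.1) 744 and 2133, and on log2(TPM + 1) 501 and 1461.

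**Figure D1:**
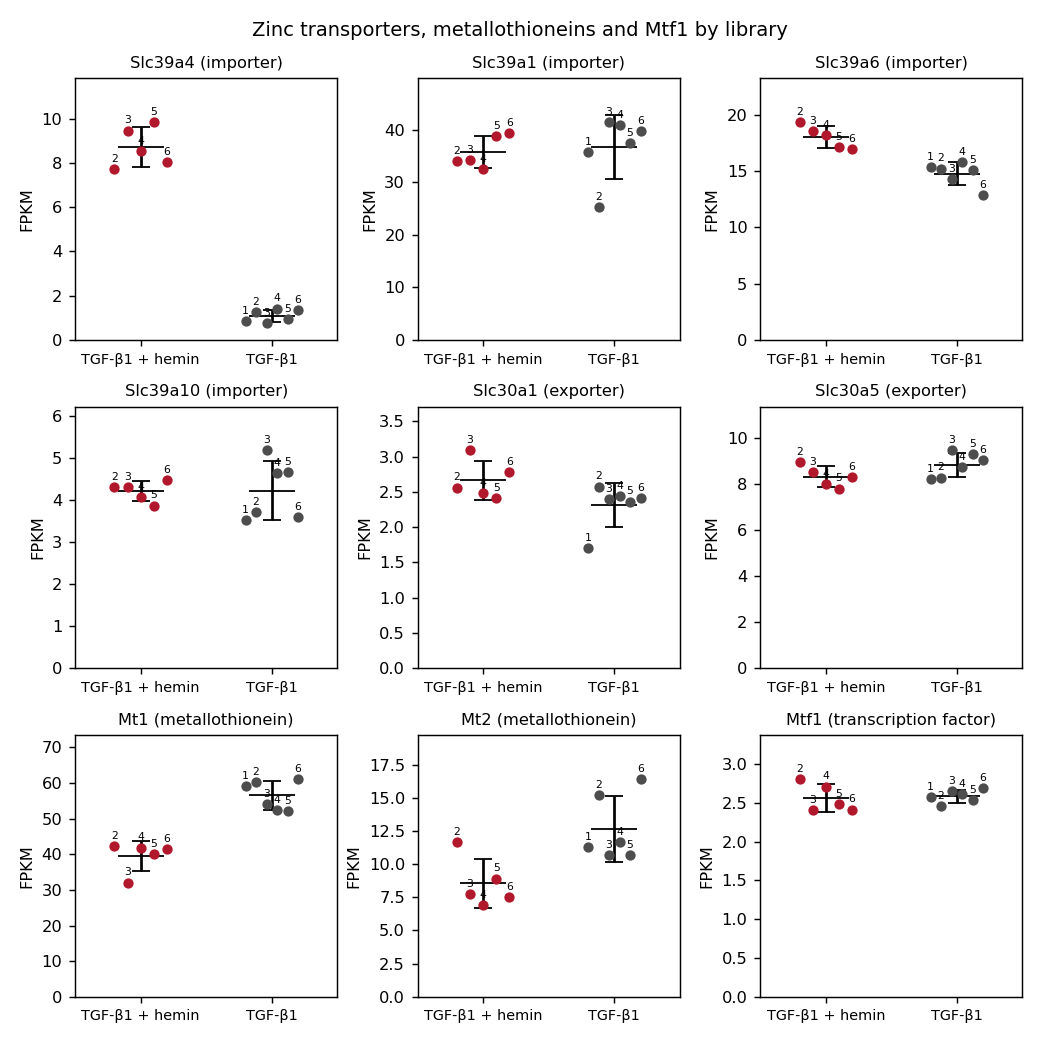
FPKM of the 9 zinc genes in each library, with TGF-β1 and hemin (red, 5 libraries) left of TGF-β1 alone (grey, 6 libraries). Numbers are replicates, and the horizontal line and bars give the mean ± SD. The groups stand apart for Slc39a4, Slc39a6 and Mt1 and overlap for the other 6 genes.

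Of the 9 genes, Slc39a4 had the largest difference. It encodes ZIP4, an importer of the plasma membrane whose loss in humans causes the zinc deficiency disease acrodermatitis enteropathica. The gene (ENSMUSG00000063354) lies on chromosome 15 from 76496583 to 76501584, minus strand, in build GRCm39. Its level in hemin replicates 2 to 6 was 7.70, 9.46, 8.54, 9.85 and 8.04 FPKM, against 0.865, 1.24, 0.743, 1.41, 0.937 and 1.35 FPKM in TGF-β1 replicates 1 to 6. Every hemin library thus lay far above every TGF-β1 library, and no library of either group came near the other. The raw counts behind these levels were 1716 to 3161 with hemin and 169 to 319 with TGF-β1 alone. With hemin, Slc39a4 was 8.59-fold higher (log2 fold change 3.10, SE 0.15). The mean was 8.72 ± 0.916 FPKM with hemin (SD, n = 5) and 1.09 ± 0.279 FPKM with TGF-β1 alone (SD, n = 6).

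The genes nearest to Slc39a4, on the same strand, did not pass the test. Vps28, which encodes an endosomal sorting subunit, lies 4702 bases away and averaged 15.0 FPKM with hemin and 14.5 FPKM with TGF-β1 alone. Cpsf1, an mRNA cleavage factor gene 4871 bases away, averaged 15.3 FPKM with hemin and 16.4 FPKM with TGF-β1 alone. Vps28 had a log2 fold change of 0.15 (SE 0.08; edgeR adjusted p = 0.220) and Cpsf1 one of 0.01 (SE 0.06; edgeR adjusted p = 0.939), so neither passed the test. No other gene of the table overlapped Slc39a4.

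Slc39a6 encodes ZIP6, an importer of the plasma membrane that pairs with ZIP10. It (ENSMUSG00000024270, chromosome 18, 24712938 to 24736874, minus strand) stood at 19.4, 18.5, 18.2, 17.1 and 17.0 FPKM in hemin replicates 2 to 6, against 15.3, 15.2, 14.3, 15.8, 15.1 and 12.9 FPKM in TGF-β1 replicates 1 to 6. The lowest hemin libraries, replicates 5 and 6, lay a little above the highest TGF-β1 library, replicate 4. The level was 1.32-fold higher with hemin (log2 fold change 0.40, SE 0.06). Slc39a6 overlaps Elp2, a gene of the opposite strand that encodes an Elongator subunit, and the strand setting of the counting is not given in the sources used here. Elp2 averaged 8.40 FPKM with hemin and 9.20 FPKM with TGF-β1 alone, with a log2 fold change of -0.02 (SE 0.05; edgeR adjusted p = 0.855). Of the next nearest genes, Rprd1a, 49676 bases away, did not pass (log2 fold change -0.05, SE 0.08; edgeR adjusted p = 0.778). Mocos, a molybdenum cofactor sulfurase gene 49873 bases away, rose, with 13.1 FPKM with hemin and 10.2 FPKM with TGF-β1 alone (log2 fold change 0.48, SE 0.06; edgeR adjusted p = 5.06e-05).

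Slc39a10, the gene of the partner ZIP10 (ENSMUSG00000025986, chromosome 1, 46846704 to 46927230, minus strand), stood at 4.30, 4.31, 4.07, 3.86 and 4.47 FPKM in hemin replicates 2 to 6 and at 3.51, 3.70, 5.17, 4.63, 4.67 and 3.60 FPKM in TGF-β1 replicates 1 to 6. All 5 hemin libraries lay inside the range of the TGF-β1 libraries, which spread more widely (SD 0.238 FPKM with hemin, n = 5, and 0.696 FPKM with TGF-β1 alone, n = 6). The log2 fold change was 0.11 (SE 0.09), and its sign turned on the TPM scale (-0.02).

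Slc39a1 encodes ZIP1, a widely expressed importer, and was the most abundant importer among the 9 genes. The gene (ENSMUSG00000052310) lies on chromosome 3 from 90155479 to 90160919, plus strand. Hemin replicates 2 to 6 gave 34.0, 34.2, 32.5, 38.8 and 39.3 FPKM, and TGF-β1 replicates 1 to 6 gave 35.7, 25.2, 41.5, 40.9, 37.5 and 39.7 FPKM. The groups overlapped throughout, and TGF-β1 replicate 2 was the lowest of all 11 libraries. The log2 fold change was 0.07 (SE 0.09), and it turned to -0.01 without that library and to -0.02 on log2(FPKM + 1).

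Set beside the whole importer family, Slc39a4 made up 5.23 ± 0.604% of the FPKM summed over the 14 Slc39a genes with hemin (SD, n = 5), against 0.728 ± 0.204% with TGF-β1 alone (SD, n = 6). The sum itself ran from 159 to 173 FPKM in hemin libraries and from 137 to 159 FPKM in TGF-β1 libraries. The order of levels with hemin began with Slc39a7 (56.5 ± 4.79 FPKM), Slc39a1 (35.7 ± 3.09), Slc39a11 (18.1 ± 0.839) and Slc39a6 (18.1 ± 1.00), where the last pair did not differ beyond their spread. Slc39a3 (8.74 ± 0.310 FPKM) and Slc39a4 (8.72 ± 0.916 FPKM) followed, again within their spread. With TGF-β1 alone the same genes stood at 51.3 ± 2.60 FPKM for Slc39a7, 36.7 ± 6.04 for Slc39a1, 15.9 ± 1.21 for Slc39a11, 14.8 ± 1.05 for Slc39a6 and 8.91 ± 0.627 for Slc39a3.

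**Figure D2:**
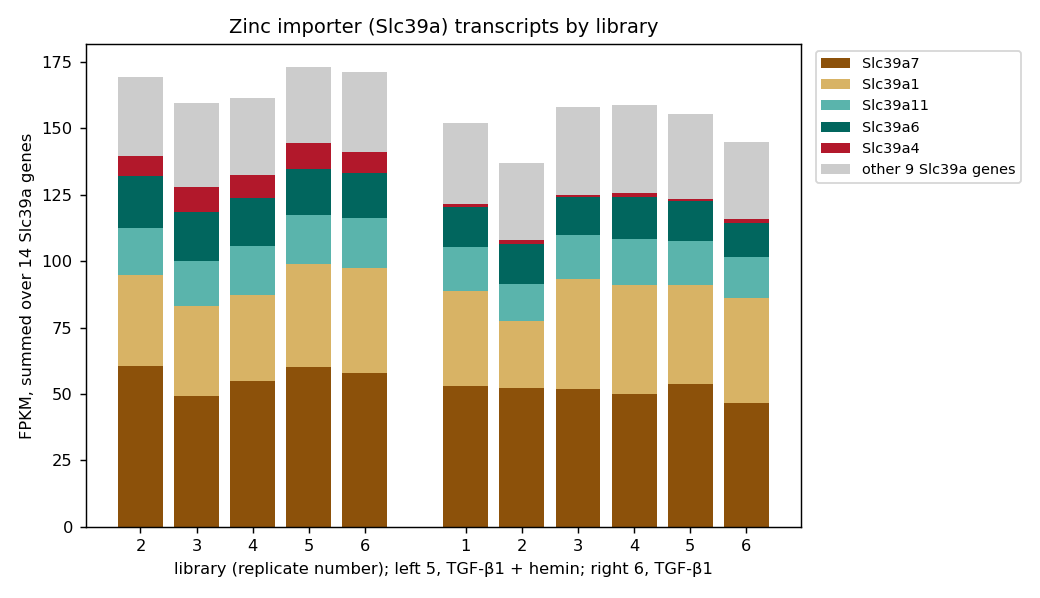
Stacked FPKM of the 14 Slc39a genes in each library, with the 5 libraries of TGF-β1 and hemin left of the 6 of TGF-β1 alone. The Slc39a4 segment (red) is 7.70 to 9.85 FPKM tall with hemin and 0.743 to 1.41 FPKM with TGF-β1 alone, while Slc39a7 and Slc39a1 make up most of every bar.

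Of the 10 other Slc39a genes, 9 were tested, 2 rose and 7 did not pass, with a median log2 fold change of 0.08. Slc39a7, which encodes ZIP7, the channel that releases zinc from the endoplasmic reticulum, gave 60.7, 49.1, 54.7, 60.2 and 57.9 FPKM in hemin replicates 2 to 6, against 53.0, 52.4, 51.7, 50.1, 53.7 and 46.6 FPKM in TGF-β1 replicates 1 to 6. It rose with a log2 fold change of 0.25 (SE 0.06; edgeR adjusted p = 0.0134), although hemin replicate 3 lay inside the TGF-β1 range, and the groups overlapped. Slc39a11, which encodes ZIP11, stood between 16.8 and 19.0 FPKM in hemin libraries and between 13.8 and 17.2 FPKM in TGF-β1 libraries. It rose with a log2 fold change of 0.30 (SE 0.05; edgeR adjusted p = 0.00111). Its groups overlapped in FPKM and stood apart in counts scaled by TMM factors. The call of Slc39a7 was lost in limma on FPKM and without the 2 deepest libraries (hemin replicates 5 and 6). Neither gene passed on log2(TPM + 1). Slc39a8 and Slc39a14, whose proteins also carry manganese and iron, stood at 2.14 ± 0.129 and 2.48 ± 0.306 FPKM with hemin and at 2.45 ± 0.390 and 2.83 ± 0.342 FPKM with TGF-β1 alone, and did not pass (edgeR adjusted p = 0.682 and 0.605).

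Among exporters, Slc30a1 encodes ZnT1, which carries zinc out across the plasma membrane. The gene (ENSMUSG00000037434) lies on chromosome 1 from 191638879 to 191645359, plus strand. It gave 2.56, 3.09, 2.49, 2.41 and 2.78 FPKM in hemin replicates 2 to 6, against 1.70, 2.58, 2.39, 2.44, 2.36 and 2.41 FPKM in TGF-β1 replicates 1 to 6. The groups overlapped, with TGF-β1 replicate 1 well below the rest. With hemin its log2 fold change was 0.31 (SE 0.10), with a range of 0.24 to 0.35 when any 1 library was left out.

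Slc30a5 encodes ZnT5, which loads zinc into the secretory pathway as a partner of ZnT6. It (ENSMUSG00000021629, chromosome 13, 100939156 to 100969935, minus strand) gave 8.97, 8.52, 8.01, 7.81 and 8.32 FPKM in hemin replicates 2 to 6 and 8.23, 8.29, 9.47, 8.76, 9.32 and 9.06 FPKM in TGF-β1 replicates 1 to 6. The groups overlapped, and the log2 fold change of 0.02 (SE 0.05) turned negative on every FPKM and TPM scale tried. It was the most abundant exporter, at 31.5 ± 0.453% of FPKM summed over the Slc30a genes with hemin and 32.2 ± 1.54% with TGF-β1 alone.

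Of the 8 other Slc30a genes, 5 were in the table and 4 were tested, and of these 1 fell and 3 did not pass. Slc30a2, Slc30a8 and Slc30a10 were not analysed here. The one that fell was Slc30a9, whose product exports zinc from mitochondria. It gave 3.28, 3.51, 2.88, 2.98 and 3.23 FPKM in hemin replicates 2 to 6, against 3.71, 3.93, 4.04, 4.56, 4.92 and 4.48 FPKM in TGF-β1 replicates 1 to 6, so every hemin library lay below every TGF-β1 library. The log2 fold change was -0.32 (SE 0.06; edgeR adjusted p = 0.00255). Slc30a6, the gene of the ZnT5 partner, and Slc30a7 stood at 4.46 ± 0.242 and 4.93 ± 0.246 FPKM with hemin and at 4.39 ± 0.489 and 4.81 ± 0.311 FPKM with TGF-β1 alone, and did not pass (edgeR adjusted p = 0.346 and 0.104), although Slc30a7 passed without hemin replicate 3.

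The metallothionein genes were both lower on average with hemin. Mt1 (ENSMUSG00000031765, chromosome 8, 94905710 to 94906955, plus strand) gave 42.3, 32.0, 41.9, 40.1 and 41.3 FPKM in hemin replicates 2 to 6, against 59.1, 60.3, 54.0, 52.4, 52.0 and 61.1 FPKM in TGF-β1 replicates 1 to 6. The groups stood apart, and hemin replicate 3 lay below the other hemin libraries. Mt1 differed by -24.6% in the fit (log2 fold change -0.41, SE 0.08). This log2 fold change ran from -0.44 to -0.33 when any 1 library was left out.

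Mt2 (ENSMUSG00000031762, chromosome 8, 94899292 to 94900196, plus strand) lies 5513 bases before Mt1 on the same strand. It gave 11.6, 7.77, 6.92, 8.90 and 7.49 FPKM in hemin replicates 2 to 6, against 11.3, 15.2, 10.7, 11.7, 10.7 and 16.4 FPKM in TGF-β1 replicates 1 to 6. The groups overlapped because hemin replicate 2 lay among the TGF-β1 libraries, while the other 4 hemin libraries lay below all of them. In the fit Mt2 had a log2 fold change of -0.46 (SE 0.16), with raw counts of 322 to 542 with hemin and 459 to 684 with TGF-β1 alone. Without hemin replicate 2 the log2 fold change was -0.60, and it ran from -0.60 to -0.38 over the libraries left out in turn.

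Mt1 was the larger part of metallothionein transcript in every library, with an Mt1 to Mt2 ratio of FPKM of 4.76 ± 0.999 with hemin (SD, n = 5) and 4.56 ± 0.611 with TGF-β1 alone (SD, n = 6). Mt1 and Mt2 summed to between 39.8 and 53.9 FPKM in hemin libraries and between 62.7 and 77.6 FPKM in TGF-β1 libraries. Within the 6 TGF-β1 libraries, a comparison the choice of genes did not use, log2 CPM of Mt1 and Mt2 gave Pearson's r = 0.79 (exact permutation p = 0.0681 over 720 pairings, 2-sided) and Spearman's rho = 0.89 (exact permutation p = 0.0333). Adjusted by Benjamini-Hochberg over 4 p-values (both coefficients, on log2 CPM and on log2(FPKM + 1)), the exact permutation p was 0.0681 for each, so neither coefficient passed. Correlations of Mt1 with other genes were also computed, as a description with no p. Without TGF-β1 replicates 4 and 5, the libraries farthest from the median of Mt1, r was 0.76 over 4 libraries (exact permutation p = 0.125). This r did not pass, and the 24 pairings at that size leave the test little power. In the 5 hemin libraries r was 0.27, given as a description because fewer than 6 libraries were not tested, and the difference between the groups was not tested.

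**Figure D3:**
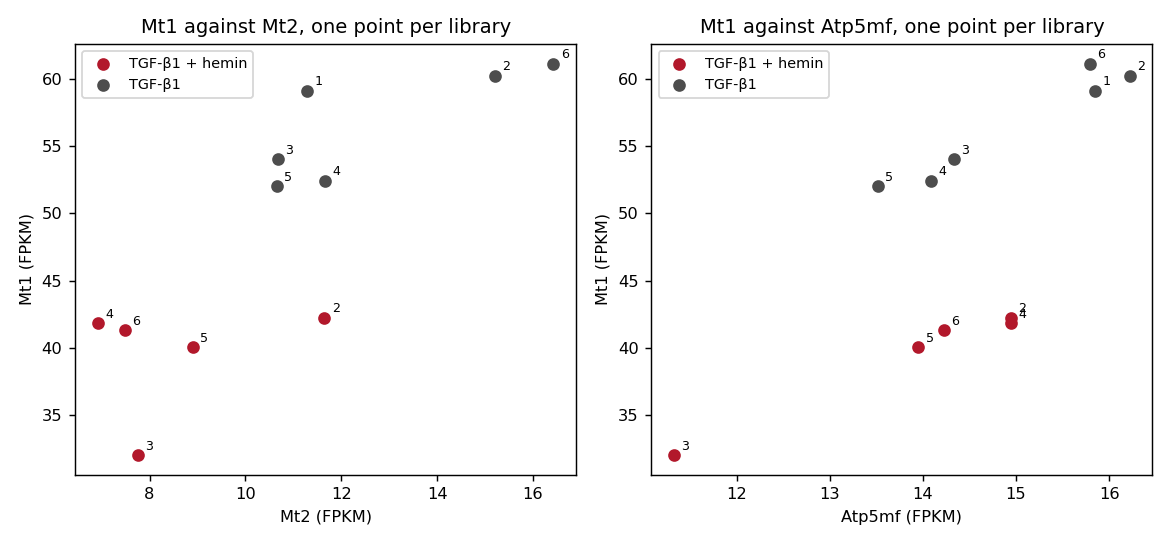
Mt1 FPKM against Mt2 FPKM (left) and against Atp5mf FPKM (right), 1 point per library with its replicate number, TGF-β1 and hemin in red and TGF-β1 alone in grey. Mt1 spans 32.0 to 42.3 FPKM with hemin and 52.0 to 61.1 FPKM with TGF-β1 alone, while Mt2 overlaps at hemin replicate 2.

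Both metallothionein transcripts are short. When tested genes were sorted by counts per FPKM into 10 deciles from short to long, Mt1 lay in decile 2 and Mt2 in decile 1. In deciles 2 and 1 the median log2 fold change was 0.05 and -0.00, and 2.84% and 1.45% of genes were called lower with hemin, against 5.75% of all tested genes. A log2 fold change at or below that of Mt1, called or not, was held by 10.2% of genes in decile 2 and 13.7% in decile 1, against 7.67% to 10.3% in deciles 3 to 10. The part of transcript length in the metallothionein values was not tested. The neighbour Nup93, a nuclear pore gene 34236 bases from Mt1, averaged 16.2 FPKM with hemin and 17.5 FPKM with TGF-β1 alone, with a log2 fold change of -0.00 (SE 0.05; edgeR adjusted p = 0.982). Gm45774 overlaps Mt2 on the opposite strand, at 0.0838 FPKM with hemin and 0.126 FPKM with TGF-β1 alone. Whether reads were shared between Mt1 and Mt2, or with other similar sequences, was not tested, so the split between them is uncertain.

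Mtf1 encodes MTF-1, the zinc-sensing factor itself. The gene (ENSMUSG00000028890, chromosome 4, 124695897 to 124743172, plus strand) gave 2.81, 2.41, 2.71, 2.48 and 2.41 FPKM in hemin replicates 2 to 6 and 2.57, 2.46, 2.65, 2.61, 2.53 and 2.69 FPKM in TGF-β1 replicates 1 to 6. The groups overlapped fully, and the log2 fold change was 0.10 (SE 0.07), turning to -0.01 on log2(FPKM + 1). Its position overlaps 1110065P20Rik on the opposite strand, at 2.23 FPKM with hemin and 2.04 FPKM with TGF-β1 alone on average.

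Genes known as MTF-1 targets beyond the metallothioneins went both ways. Of 5 that are not among the 9 zinc genes, 2 rose, 1 fell and 2 did not pass, with a median log2 fold change of 0.33. Selenow, which encodes the small antioxidant selenoprotein W, gave 47.1, 43.0, 46.5, 47.9 and 51.0 FPKM in hemin replicates 2 to 6, against 64.3, 57.0, 60.5, 76.0, 67.2 and 74.0 FPKM in TGF-β1 replicates 1 to 6. It fell with a log2 fold change of -0.39 (SE 0.07; edgeR adjusted p = 0.000692), close in size to Mt1, and the groups did not overlap. Selenow is also a short transcript, in decile 1 of counts per FPKM like Mt2, and the part of length was not tested. Gclc, which encodes the catalytic subunit of the first enzyme of glutathione synthesis, rose with 12.6 ± 0.101 FPKM with hemin and 10.4 ± 0.874 FPKM with TGF-β1 alone (log2 fold change 0.39, SE 0.05; edgeR adjusted p = 9.12e-05), a call lost in limma on log2(TPM + 1). Slc40a1, the gene of the iron exporter ferroportin, rose to 11.3 ± 0.696 FPKM with hemin, against 2.59 ± 0.252 FPKM with TGF-β1 alone (edgeR adjusted p = 2.44e-12). Ndrg1 (log2 fold change 0.33, SE 0.13; edgeR adjusted p = 0.115) and Csrp1 (log2 fold change 0.10, SE 0.06; edgeR adjusted p = 0.285) did not pass, although Ndrg1 passed without TGF-β1 replicate 6. Other factors than MTF-1 are known to control Gclc and Slc40a1, and which factor moves with these levels was not tested.

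**Figure D4:**
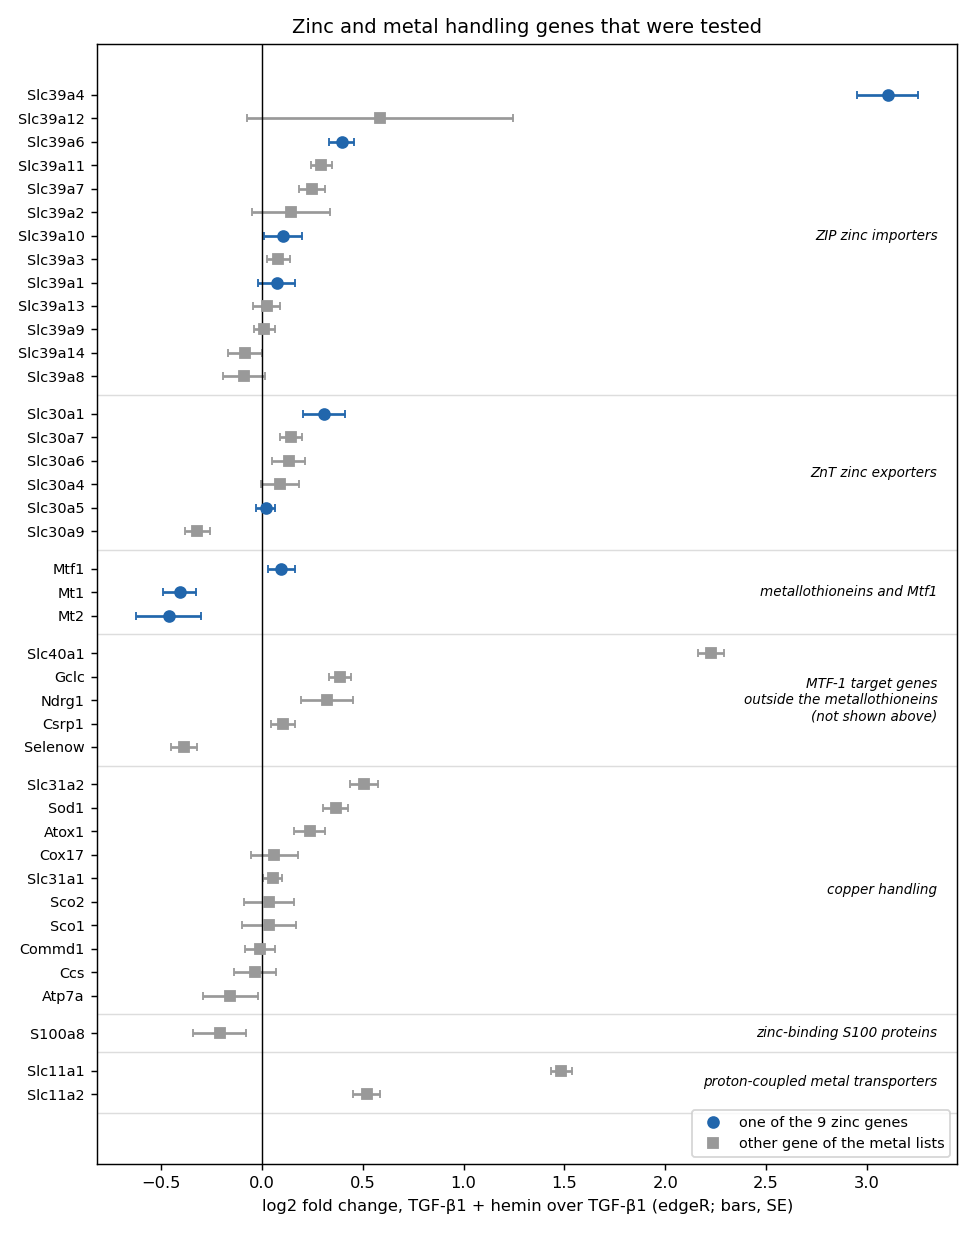
Log2 fold change of hemin over TGF-β1 alone (edgeR, 5 and 6 libraries, bars give the SE) for the tested genes of the zinc and metal lists, with the 9 zinc genes as blue circles and the others as grey squares. Slc39a4 at 3.10 stands far above the rest of its family, and Mt1, Mt2, Slc30a9 and Selenow lie farthest left of 0.

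Copper, which metallothioneins also bind, was represented by 11 genes of which 10 were tested, and 3 rose while 7 did not pass. Slc31a2, which encodes a copper transporter of endosomes, rose without overlap, with 20.9 ± 1.34 FPKM with hemin and 15.9 ± 1.18 FPKM with TGF-β1 alone (log2 fold change 0.51, SE 0.07; edgeR adjusted p = 0.000108). Sod1, the gene of the copper and zinc superoxide dismutase, rose with a log2 fold change of 0.37 (SE 0.06; edgeR adjusted p = 0.000643). Atox1, a copper chaperone gene, rose with 0.24 (SE 0.08; edgeR adjusted p = 0.0462), a call lost in most alternatives. Slc31a1, the main copper importer gene, did not pass (log2 fold change 0.05, SE 0.05; edgeR adjusted p = 0.543).

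Both proton-coupled metal transporter genes rose. Slc11a1, whose product draws iron and manganese out of phagosomes, averaged 126 ± 3.71 FPKM with hemin and 48.5 ± 2.34 FPKM with TGF-β1 alone (log2 fold change 1.48, SE 0.05; edgeR adjusted p = 1.94e-11). Slc11a2, which encodes the divalent metal transporter DMT1, averaged 5.93 ± 0.421 FPKM with hemin and 4.45 ± 0.289 FPKM with TGF-β1 alone (log2 fold change 0.52, SE 0.07; edgeR adjusted p = 5.06e-05). S100a8, which encodes a zinc-binding protein of the calprotectin pair, did not pass, at 5.51 ± 0.623 FPKM with hemin and 6.86 ± 0.743 FPKM with TGF-β1 alone (edgeR adjusted p = 0.350).

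The libraries carried macrophage transcripts at high level, with 8 of 8 macrophage markers at 1 FPKM or more and sums of 5025 to 5851 FPKM with hemin and 4144 to 6226 FPKM with TGF-β1 alone. Of 10 measured markers of renal proximal tubule epithelium, 3 averaged 1 FPKM or more, and the list summed to 3.03 to 7.49 FPKM with hemin and 6.38 to 12.4 FPKM with TGF-β1 alone. Tubule cells also express metallothioneins and zinc transporters. The defining tubule genes Lrp2 and Cubn averaged 0.0378 and 0.00355 FPKM with hemin and 0.0236 and 0.0100 FPKM with TGF-β1 alone. Cdh1, the E-cadherin gene and the most abundant of the list, fell, at 1.95 ± 0.431 FPKM with hemin and 5.39 ± 0.766 FPKM with TGF-β1 alone (log2 fold change -1.36, SE 0.13; edgeR adjusted p = 1.77e-06). Of 7 measured fibroblast markers, 3 averaged 1 FPKM or more, with sums of 29.8 to 53.1 FPKM with hemin and 38.4 to 92.8 FPKM with TGF-β1 alone. The part of other cells in the levels of the zinc genes was not tested.

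**Figure D5:**
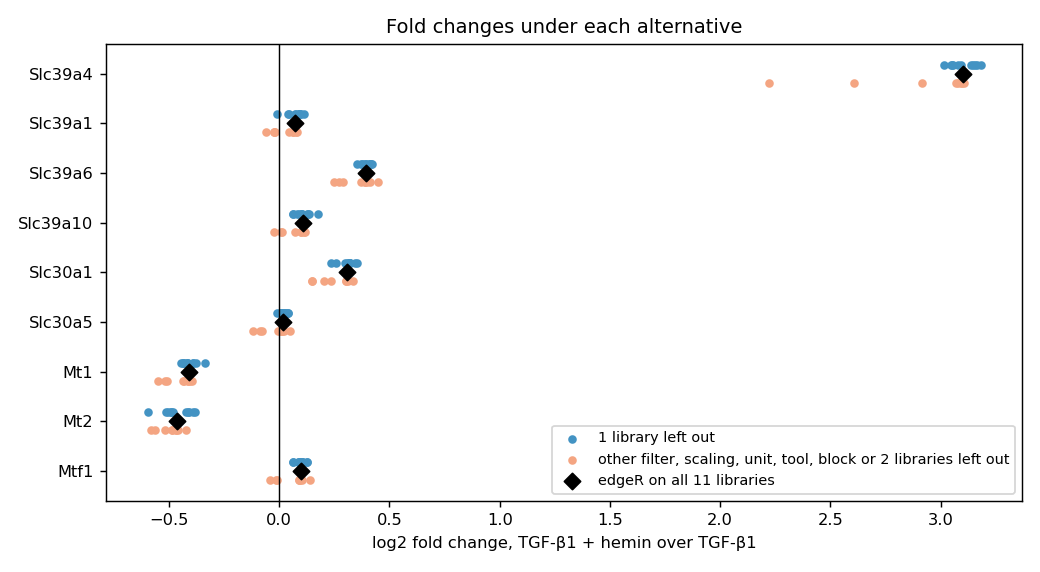
Log2 fold change of each zinc gene in the edgeR fit on all 11 libraries (black diamonds), with 1 library left out (blue) and under the other filters, scalings, units, tools, the block and 2 libraries left out (orange). Slc39a4, Slc39a6 and Slc30a1 stay right of 0 and Mt1 and Mt2 left of 0 in all of them, and Slc39a1, Slc39a10, Slc30a5 and Mtf1 cross it.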

How the data were processed

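The authors deposited a table that gives, for each gene, raw counts (whole numbers, no scaling) and FPKM for every library. Per the labels' protocols, polyadenylated RNA was selected and the second cDNA strand was marked with dUTP. The submitters' processing notes name build GRCm39, HISAT2 2.2.1, StringTie 2.1.6, FastQC 0.11.9 and cutadapt 1.9, besides DESeq2, and give no role or order. How reads were counted (annotation release, strand setting) is not given in the sources used here.

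Libraries were grouped by title prefix. The 9 genes and all lists were chosen with earlier results of these data known. Named genes are the 9, the genes of the metal lists and the 5 genes most like Mt1, besides neighbouring genes and cell type markers. In R 4.3.3, edgeR 4.0.16 (filterByExpr, minimum count 10 and total 15; TMM; quasi-likelihood F test; group as sole term) was fitted to all 11 libraries and all tested genes, with the SE as the log2 fold change over the square root of F. The code was tested on simulated data. Alternatives were DESeq2 1.42.0, its size factors, other filters, limma 3.58.1 on log2(FPKM + 1), log2(FPKM + 0.1) and, added after seeing the data, log2(TPM + 1), with TPM rescaled from the deposited FPKM, the replicate block and libraries left out. Within groups, all pairs of libraries differed by more than sampling noise (chi-square per degree of freedom of at least 27). Pairs with TGF-β1 replicate 2 differed most, at 98.2 to 186. The other TGF-β1 pairs reached at most 61.4 and the hemin pairs at most 71.1. Total counts of 65.5 to 96.6 M (1e6 counts) set the counting error, which is small beside the spread between libraries.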

Additional observations from a re-analysis of the deposited data

Results flagged for a closer look

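In 18 groups of values looked at (9 genes in 2 groups), 3 held a library far from the others of its group, where chance flags about 1 group in 20. Mt1 in hemin replicate 3 was 32.0 FPKM, with the next hemin library at 40.1 FPKM. Slc39a1 in TGF-β1 replicate 2 was 25.2 FPKM, with the next TGF-β1 library at 35.7 FPKM. Over all genes, TGF-β1 replicate 2 also differed most from the other TGF-β1 libraries (chi-square per degree of freedom of 98.2 to 186). Slc30a1 in TGF-β1 replicate 1 was 1.70 FPKM, with the next TGF-β1 library at 2.36 FPKM. Without these libraries the log2 fold changes, hemin over TGF-β1 alone, were -0.33 for Mt1, -0.01 for Slc39a1 and 0.24 for Slc30a1.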

How the results depend on the processing

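Over 20 alternatives, the count of all changed genes ran from 1447 without the 2 deepest libraries to 2895, and from 1704 to 2169 with 1 library left out. The 2 deepest libraries were hemin replicates 5 and 6 (96.6 and 95.7 M counts), so that setting also had fewer hemin libraries. Of the 9 zinc genes, 3 to 5 were called, 5 of them in DESeq2 (Mt2 and Slc30a1 added), and 3 to 4 with 1 library left out. A minimum mean of 5 FPKM removed Slc39a4, Slc39a10, Slc30a1 and Mtf1 from the test. Of the other Slc39a genes, 2 passed in most settings, 1 on log2(FPKM + 1), 1 on log2(FPKM + 0.1), 1 without the 2 deepest libraries and 0 in limma on log2(TPM + 1) (0 also at an unadjusted p under 0.05, against 2 called in edgeR and 2 in DESeq2). For the other Slc30a genes the count was 0 with a minimum mean of 5 FPKM, since none was left to test, and 1 to 2 with 1 library left out, the second being Slc30a7 without hemin replicate 3.

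Log2 fold changes that turned sign belonged to genes that did not pass in any alternative. Slc39a1 was -0.024 on log2(FPKM + 1), -0.024 on log2(FPKM + 0.1), -0.059 on log2(TPM + 1) and -0.018 without the 2 deepest libraries, and ran from -0.0097 to 0.11 with 1 library left out. Slc30a5 was -0.0061 with a minimum mean of 5 FPKM, -0.079, -0.088 and -0.12 on those 3 scales, and -0.0088 to 0.040 with 1 library left out. Mtf1 was -0.0099, -0.014 and -0.043 on those scales, and Slc39a10 -0.023 on log2(TPM + 1). The cause was not tested. Mt2 passed in 6 of 20 alternatives, among them DESeq2, limma on each scale and edgeR without hemin replicate 2, and Slc30a1 in 2 of 19, DESeq2 and edgeR without TGF-β1 replicate 2. Slc39a4 ran from 2.22 to 3.18, lowest on log2(FPKM + 1), where a pseudocount understates the change of a low gene.

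A pairing of libraries by replicate number was not seen. Same-numbered libraries correlated between -0.44 and 0.28 in their deviations from the group means, and 2 of 5 pairs were above 0.1. Of 5 hemin libraries, 1 was most like its own number. Whether same-numbered libraries share an animal or culture is not in the labels. With the replicate number as a block over replicates 2 to 6, 1543 genes changed, the same 3 of 9 zinc genes passed, 2 of the other Slc39a and 1 of the other Slc30a genes passed, and so did 3 MTF-1 targets and 2 copper genes. Of the metal lists, Slc39a5, Slc30a3, Atp7b and S100a9, the partner gene of S100a8, did not pass the filter on low counts and were not tested.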

Other observations

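The genes whose log2 CPM varied most like that of Mt1 within the groups, over 11 libraries with each group's mean removed and among 6003 other genes of mean FPKM at least 5, were Atp5mf, Rps3, Gm11560, Mea1 and Ndufs4. Their Pearson's r with Mt1 was 0.99, 0.94, 0.93, 0.93 and 0.92, given as a description of libraries that share depth and preparation. Mt2 came in place 1217 with r = 0.50, and Mtf1 in place 709 with r = 0.62. Atp5mf, which encodes an ATP synthase subunit, stood between 11.3 and 14.9 FPKM in hemin libraries and between 13.5 and 16.2 FPKM in TGF-β1 libraries. Hemin replicate 3, the lowest library of Mt1, was also the lowest of Atp5mf and of the ribosomal protein gene Rps3, at 149.5 FPKM.

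The ratio of Mt1 to Atp5mf FPKM was 2.83, 2.83, 2.80, 2.87 and 2.91 in hemin replicates 2 to 6, against 3.73, 3.71, 3.77, 3.72, 3.85 and 3.87 in TGF-β1 replicates 1 to 6. The choice of the most similar gene makes the spread within each group small. The gap between the groups was not part of that choice, since group means were removed, but Mt1 was known to differ. Atp5mf itself did not pass between the groups (log2 fold change -0.00, SE 0.08; edgeR adjusted p = 0.996). What makes both genes vary together within groups was not tested.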
